A study of Mus musculus with 16 samples.

Results

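The control embryos of this study of the maternal histone demethylase KDM1A (LSD1) were examined on their own. They were chosen by their label, the genotype f/wt, which was given to 8 of the 16 libraries, each made from 1 whole two-cell embryo. The f/wt embryos came from superovulated Kdm1a f/f females, with Kdm1a exon 1 flanked by loxP sites and no Cre transgene, mated with wild-type B6D2F1 males. They therefore carried an undeleted floxed allele from the mother and a wild-type allele from the father. The labels give their strain as B6D2F1, but the paper uses that name for the males only. It describes the Kdm1a f/f mice with the Cre transgene as a mixture of strains. The f/wt embryos may therefore differ in genetic background, and its part in the spread between them was not tested. No embryo was treated, the dm/wt embryos were not analysed here, and the labels give neither sex nor batch.

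In the mouse, the embryo at this stage runs on messenger RNAs that the oocyte stored, which are being degraded, while its own genome is being switched on in the major wave of genome activation. Transcripts in such an embryo are therefore a mixture of maternal stores and new embryonic products. Genes such as Zscan4 and the MERVL retrotransposons, a family of LTR elements, are known for a brief burst of transcription at this stage.

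Each library held between 3212510 and 9337451 counts over genes. Libraries 2 and 3 were near-identical. Their counts over genes differed by a mean chi-square of 1.89 per gene, against 45.6 to 296 in the other 27 pairs of libraries. At 20 to 49 counts the mean chi-square was 1.16, close to the sampling noise, so their counts were summed and treated as 1 sample, named 2+3, which left 7 samples. A count of a gene was divided by the scaled library total and multiplied by 1000000 to give CPM, and differences between samples were measured on the log2 scale. With 1 library per embryo, a difference between embryos cannot be told apart from losses during reverse transcription and amplification. As whole embryos were lysed, fewer cells with a transcript and less of it per cell cannot be told apart either.

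Of 24063 genes listed, 17160 had at least 1 count. A mean of 1 CPM or more was reached by 12681 genes, 10 CPM by 7792, 100 CPM by 2437 and 1000 CPM by 87. Far fewer were present throughout, since 6738 genes were at 1 CPM or more in all 7 samples. Single libraries showed 11901 to 14444 genes with a count, and at the depth of the shallowest library, 3212510 counts, an expected 10938 in library 6 to 13820 in library 4. The libraries of embryos 6 and 7 thus held the fewest genes at equal depth.

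The transcripts marked the samples as oocyte-derived, early embryonic material. All 16 genes of the subcortical maternal complex and reproductive NLRP list were at a mean of 1 CPM or more, as were all 3 zona pellucida genes. The complex lies beneath the cortex of the egg. Of 39 oocyte stored transcripts, 33 were at a mean of 1 CPM or more, and 3 had no count in any library (Oog1, Figla and Gm4340). Of 43 two-cell stage markers, 37 were at a mean of 1 CPM or more. Another 5 had no count in any library (Dux, Tdpoz5, Gm4027, Gm4340 and Gm6763). The summed level of the two-cell stage markers ranged from 4346 to 14764 CPM. Of 27 myeloid and blood cell markers, 7 had no count in any library, the pan-leukocyte gene Ptprc and all 5 globin entries among them, and their summed level was 14.1 to 37.7 CPM. The complement gene C1qb reached 25.3 CPM in sample 7 and at most 2.44 CPM elsewhere, and the lysozyme genes Lyz1 and Lyz2 were highest in sample 5 at 10.2 and 12.2 CPM. Of 17 cumulus and granulosa markers, 7 had no count, with Amh, Foxl2 and Fshr among them, and the sum was 2.17 to 19.2 CPM. Of 10 sperm and spermatid markers, 7 were at 0, including the protamine gene Prm1. The rest of that list summed to 153 to 595 CPM, nearly all from Odf2 and Crem, which other cell types also express.

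The 20 genes with the highest mean CPM took 8.69% of all gene counts, the first 100 took 18.3%, and 775 genes were needed for 50% of them. First was Dcdc2c, a gene of the doublecortin family of microtubule-binding proteins at chr12:28437795-28548337 in build mm10, with 1.25% of counts. Its level was 11405 in sample 1, 4889 in 2+3, 16032 in 4, 21550 in 5, 12620.4 in 6, 8078 in 7 and 12666 in 8 CPM. It ranked from 1 to 3 in every sample although sample 2+3 was the lowest and sample 5 the highest.

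Second was Spin1 (chr13:51100880-51152562), which encodes spindlin, a reader of methylated histone H3 abundant in the oocyte. Spin1 was at 4429 in sample 1, 3830.3 in 2+3, 6695 in 4, 13892 in 5, 14108 in 6, 10948 in 7 and 15727 in 8 CPM. Samples 1, 2+3 and 4 lay below the other 4 samples without overlap, a grouping seen only after the values were known. The neighbouring oocyte maturation genes Omt2a (chr9:78311972-78314797) and Omt2b (chr9:78328030-78329620) ranked 3 and 5, with means of 8781 ± 3192 CPM and 5333 ± 1824 CPM (SD, n = 7). The predicted gene Gm7102 (chr19:61174686-61176309) ranked 4 at 7883 ± 3979 CPM, and the long noncoding RNA 2310039L15Rik (chr10:95336276-95363216) ranked 6 at 5126 ± 1293 CPM. The coiled-coil gene Ccdc82 followed at 4859 ± 2881 CPM and varied most of these 7 in rank, from 3 to 51 of all genes.

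Translation was represented by Eif1, which helps the ribosome select the start codon, at 3450.2 ± 983 CPM, and by Eif4g2, an initiation factor for cap-independent translation, at 3114 ± 2290.2 CPM. The ubiquitin-conjugating enzymes Ube2d2a and Ube2d3 were at 3355 ± 1655 CPM and 2507 ± 1463 CPM. Chromatin genes were Bmi1, a Polycomb repressive complex 1 subunit, at 2863 ± 2167 CPM, and the histone variant gene H2afz (H2A.Z) at 2249 ± 669 CPM. In sample 8, Eif4g2 and Bmi1 reached 8154 and 7567 CPM, while no other sample passed 3177 and 3333 CPM. The remaining genes of the 20 were Prps1, which makes the precursor of nucleotide synthesis, the endoplasmic reticulum peptidase gene Ermp1, the autophagosome gene Map1lc3b, the predicted gene Gm16381, Bri3, the RNA helicase gene Ddx3x and Zfp706, with means of 1915 to 2999 CPM. Gm16381 overlaps other listed genes, so its single count is uncertain.

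**Figure D1:**
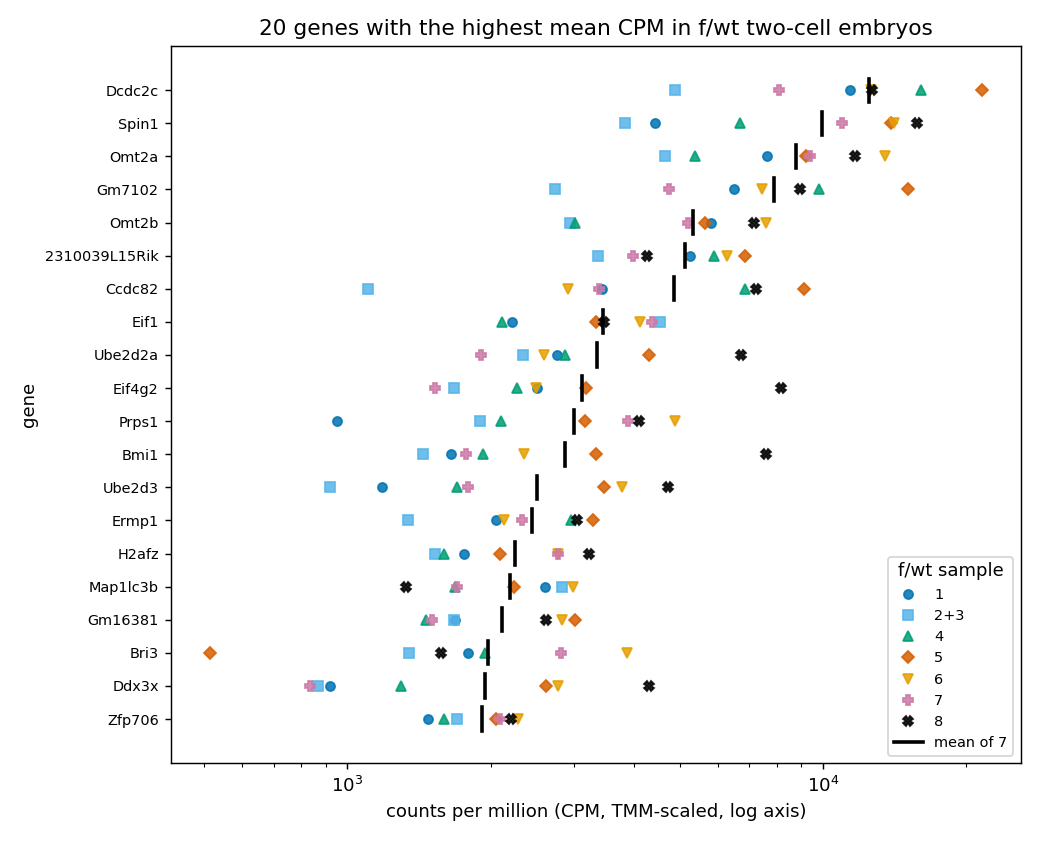
Level in CPM (log axis) of the 20 genes with the highest mean, 1 row a gene, with 1 point for each of the 7 f/wt samples and a black bar at the mean. Zfp706 is the most even of the 20, between 1478 and 2281 CPM, and Bri3 falls to 515 CPM in sample 5.

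Membership of the 20 was only partly shared between embryos. 8 genes were among the 20 highest of every sample: Dcdc2c, Spin1, Omt2a, Gm7102, Omt2b, 2310039L15Rik, Eif1 and Ube2d2a. Together the samples named 41 genes, and each sample shared 14 to 18 of its own 20 with the 20 of the mean. Bri3, for example, ranked from 9 to 372.

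Levels of different genes can be set beside each other only per length. Per kilobase of the longest transcript the order changed, and Omt2a led at 7524 ± 2735 CPM per kb (SD, n = 7), with Omt2b at 7256 ± 2482 CPM per kb. These levels differed by less than their SD between embryos, and the near-identical reads of the pair could be split either way in counting. Dcdc2c followed at 5642 ± 2431, Gm7102 at 4854 ± 2450.4, Gm16381 at 4196 ± 1339 and Eif1 at 2609.8 ± 744 CPM per kb. Spin1 at 2243 ± 1111, Cks2, a partner of cyclin-dependent kinases, at 2142 ± 438, Dppa3, which protects maternal DNA methylation, at 2127 ± 668, and H2afz at 2104 ± 626 CPM per kb completed the 10, and none of these 4 neighbours differed beyond their spread. Reads came mostly from the 3′ ends of transcripts, so division by whole length lowers long transcripts.

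The functional classes were ordered by the median CPM per kb of their members, using lists of genes set out with earlier results of these data known. Small subunit ribosomal proteins were first at 289.6 CPM per kb, large subunit ribosomal proteins came next at 221 CPM per kb and genes of ubiquitin and SUMO transfer after them at 204 CPM per kb. The 8 quantitative PCR targets and reference genes of the study, which are no functional class, stood at 94.8 CPM per kb. The CCT chaperonin, which folds actin and tubulin, followed at 82.9 CPM per kb, and SR proteins and hnRNPs, the splicing regulators, at 79.9 CPM per kb. At the lower end stood the enzymes of histone and DNA methylation at 9.51 CPM per kb, the G1/S cyclins and CDK inhibitors at 3.28 CPM per kb, and the later pluripotency and lineage factors at 1.87 CPM per kb. Those 3 classes kept their order in all 7 samples, and ubiquitin and SUMO stood above CCT in all 7. Elsewhere in the order neighbours mostly could not be separated, as only 4 of 35 neighbouring pairs kept their order in every sample. The small subunit ribosomal proteins stood above the large subunit in 5 of 7 samples. The order also rested on division by length. By median CPM alone, SR proteins and hnRNPs led at 319 CPM and ubiquitin and SUMO had 296 CPM. Small and large subunit ribosomal proteins followed at 256 and 234 CPM. The methylation enzymes, at 54.2 CPM, then stood above the nuclear respiratory chain genes at 42.5 CPM. With length capped at 3000 bases, the values of the first 3 lists were unchanged, but the order below them was not. SR proteins and hnRNPs rose to 116 CPM per kb and early genome activation regulators to 84.5, both above CCT at 82.9. The methylation enzymes rose to 19.1 CPM per kb, above the autophagy list at 16.4.

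**Figure D2:**
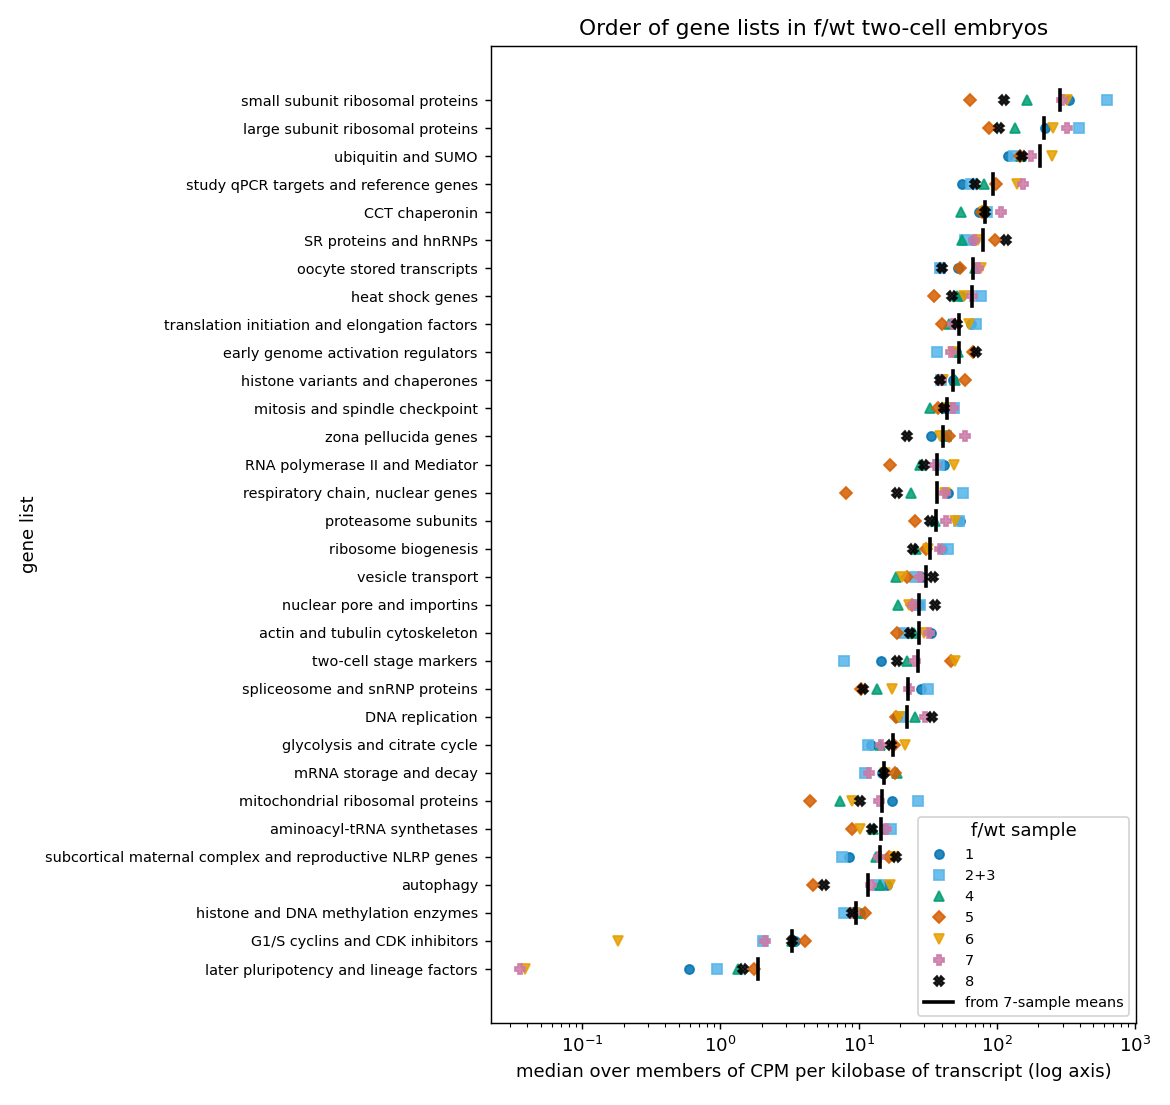
Median over members of CPM per kilobase of transcript (log axis) for 32 gene lists, 1 row a list, with 1 point for each f/wt sample and a black bar for the median taken from the means of the 7 samples. The 2 cytosolic ribosomal protein lists spread widely, with samples 5 and 8 lowest and sample 2+3 highest, while the CCT chaperonin stays between 55 and 107 CPM per kb.

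By summed counts rather than the typical member, stored oocyte transcripts came first on average, but in sample 2+3 they took 1.85%, below large and small subunit ribosomal proteins at 2.19% and 1.92%. The 39 genes of that list took 3.44% of counts on average and 1.85% to 4.8% in single samples, with Spin1 and Omt2a as the largest. Among them Uchl1, a ubiquitin hydrolase, had the largest SD, and its level ran from 1.11 to 275 CPM. In the subcortical maternal complex and NLRP list, Zbed3 at 887 ± 559 CPM and Nlrp14 at 600.1 ± 276 CPM took most counts, and Nlrp14 was lowest in sample 1 at 163 CPM. The zona pellucida genes, which encode the egg coat and are transcribed in the oocyte, were still present. Zp3 was at 86 in sample 1, 141 in 2+3, 111 in 4, 64.7 in 5, 93.2 in 6, 87.8 in 7 and 59.3 in 8 CPM and Zp2 at 50.3 to 132 CPM, both with an SD of 0.43 on the log2 scale, while Zp1 was lower at 3.54 to 38.8 CPM with an SD of 1.18.

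Among genes of messenger RNA storage and decay, 26 of 32 were at 10 CPM or more, led by the deadenylase subunit gene Cnot7 at 724 ± 439.9 CPM and the poly(A)-binding protein gene Pabpc1 at 575 ± 163 CPM. Cnot11, another subunit of the same complex, was at 0.826 CPM in sample 6 and at 19.7 CPM or more in the others.

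Two-cell stage markers were among the most uneven classes. Of 20 members with a mean of 50 CPM or more, 14 had an SD above 1 on the log2 scale, against 25.5% of all 3932 genes at that level. The median deviation of the list from the mean of each gene was -0.63 in sample 1, -1.25 in 2+3, -0.08 in 4, 0.95 in 5, 1.11 in 6, -0.08 in 7 and 0.04 in 8, so that samples 1 and 2+3 were low and samples 5 and 6 high. Zfp352, a zinc finger gene transcribed at the two-cell stage, was at 51.5 in sample 1, 21.8 in 2+3, 144 in 4, 184 in 5, 209.6 in 6, 214 in 7 and 121 in 8 CPM. Zscan4c and Zscan4d, which are near-identical copies whose reads cannot be safely divided, had 16.2 and 15.9 CPM in sample 2+3 and 118 and 107 CPM in sample 6. By mean level Gm20767 and Sp110 led, at 1399 ± 584 CPM and 1119 ± 286 CPM, and Sp110, an interferon-induced nuclear body gene, varied little with an SD of 0.41. Usp17lb, a ubiquitin protease of a multicopy family, was at 0 to 60.6 CPM.

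Regulators of early genome activation were steadier than these markers. Of 24 members with a mean of 50 CPM or more, 4 had an SD above 1, beside 25.5% of all genes at that level. 27 of 29 were at 10 CPM or more, and the Krüppel-like factor gene Klf17 was at 639.9 ± 159.7 CPM with an SD of 0.34. The least even was Zfp42, at 0.126 CPM in sample 7 and 48.5 CPM in sample 5, with an SD of 2.34. Dppa4, a partner of DPPA2 in the activation of two-cell genes, was at 618 in sample 1, 703 in 2+3, 473 in 4, 615 in 5, 524 in 6, 629.9 in 7 and 648 in 8 CPM, all within a factor of 2. Pou5f1, the gene of the pluripotency factor OCT4, was at 58.7 ± 19.2 CPM. Of the later factors, 6 of 15 reached 10 CPM. Fgf4 was highest at 58.3 ± 32.5 CPM, Nanog was at 47.2 ± 17.8 CPM and Sox2 at 0 to 11.4 CPM, with no count in samples 6 and 7.

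Of the reference genes and targets used in quantitative PCR by the study, Hprt was at 616 ± 311 CPM, Ppia at 664 ± 238 CPM and Gapdh at 169 ± 95.3 CPM, with SDs on the log2 scale of 0.65, 0.52 and 0.73. None was as even as Cct8 or H3f3a below. H2afz had an SD of 0.43, Atrx of 0.60, Suv39h1 of 0.62 and Klf4 of 1.08, Klf4 having 17.8 CPM in sample 2+3 against 66.3 to 160.0 CPM elsewhere. Kdm1a, intact in these embryos, was low. Its raw counts in libraries 1 to 8 were 76, 48, 118, 141, 188, 8, 52 and 69, or 11.2 ± 6.24 CPM, with sample 6 the lowest at 1.1 CPM. Suz12, a Polycomb repressive complex 2 subunit, took the most counts of the methylation enzyme list at 1453 ± 1215 CPM, with 4127 CPM in sample 8 and at most 1566 CPM elsewhere. Trim28, a corepressor of retrotransposons, was at 234 to 665 CPM. Kdm4c had no count in sample 7 and 39.4 to 140.1 CPM in the others.

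The machinery of protein synthesis and energy differed in evenness. Ribosomal protein genes were abundant yet uneven, with 16 of 32 small subunit and 20 of 42 large subunit genes of 50 CPM or more above an SD of 1, beside 25.5% of all genes at that level. Rps24, the highest of the small subunit, was at 868 in sample 1, 1305 in 2+3, 595 in 4, 866 in 5, 1237 in 6, 1156 in 7 and 544 in 8 CPM. Rps18 was at 0.664 CPM in sample 5 and 358 CPM in sample 2+3. Rpl41 took 1129 ± 678 CPM but fell to 50.6 CPM in sample 5, and Rpl36 had no count there and 142 CPM in sample 2+3. Many retrocopies of these genes exist, which makes single counts uncertain, and Rps27 was listed at 0 in every library. The median deviation of small subunit genes was 0.56 in sample 1, 0.98 in 2+3, -0.14 in 4, -1.54 in 5, 0.44 in 6, 0.62 in 7 and -0.74 in 8. The nuclear genes of the respiratory chain shared this profile, at 0.61 in sample 1, 1.11 in 2+3, -0.15 in 4, -1.11 in 5, 0.53 in 6, 0.63 in 7 and -0.67 in 8. The mitochondrial ribosomal proteins shared it in part, lowest in sample 5 at -0.71 and highest in sample 2+3 at 1.31. In sample 6, however, they were at -0.07. Within the respiratory list the ATP synthase gene Atp5f1 was even, at 353 to 578 CPM, while Uqcrb of complex III ranged from 0 in sample 4 to 40.1 CPM in sample 6.

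Translation factors had a median SD of 0.698 and the aminoacyl-tRNA synthetases, which charge transfer RNAs, of 0.87. Iars was highest of the latter at 728 ± 386 CPM, and Tars ran from 0.332 to 54.9 CPM. Ribosome biogenesis factors reached a mean of 10 CPM in 80 of 85 cases, with Npm1 at 1153 ± 628 CPM. Of their 63 members of 50 CPM or more, 13 had an SD above 1, beside 25.5% of all genes at that level. Of the proteasome subunits 29 of 31 reached 10 CPM, and the median SD was 0.728.

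The steadiest class was the CCT chaperonin, with a median SD of 0.414 over 8 subunits. Cct8 was at 384 in sample 1, 473 in 2+3, 362 in 4, 458 in 5, 382 in 6, 480.2 in 7 and 534 in 8 CPM and Cct3 at 206 to 375 CPM, but Cct7 fell to 0.554 CPM in sample 5. SR proteins and hnRNPs were at 0.53, with Hnrnpf at 1148 ± 404 CPM and Hnrnpab at 852 ± 211 CPM. Their exception was Hnrnph1, at 3.44 CPM in sample 6 and 361 CPM in sample 8. The core spliceosome list was less even at 1.26, and 0.764 over its 18 members of 50 CPM or more. In it Snrpd2 was at 0.111 CPM in sample 5 and 119.6 CPM in sample 1, while Sf3b1 stayed at 254 to 642 CPM. In the histone variant list, the H3.3 genes H3f3b and H3f3a were at 1379 ± 483 CPM and 883 ± 117 CPM.

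The mitosis and G1/S lists of cell cycle genes differed in the level of their typical member, though not of their highest members. Of the mitosis and spindle checkpoint list 43 of 46 were at 10 CPM or more, at a median of 44 CPM per kb, with Ccna2 (cyclin A2) at 1359 ± 429.8 CPM and Cdk1 at 880.1 ± 415 CPM. Of the G1/S list 12 of 24 reached 10 CPM, at a median of 3.28 CPM per kb, and the mitosis list stood above it in every sample. The 2 highest members of the G1/S list were E2f5, a repressor type E2F, at 811 ± 368 CPM, and cyclin E1, Ccne1, at 587 ± 314 CPM with 26.2 CPM in sample 5. Plk1, the polo-like kinase of mitosis, was at 50.8 in sample 1, 140.2 in 2+3, 1.66 in 4, 0.111 in 5, 48.6 in 6, 25.4 in 7 and 0.587 in 8 CPM. Of DNA replication genes 41 of 44 were at 10 CPM or more, with Pcna at 939 ± 552 CPM and the licensing inhibitor Gmnn at 489 ± 108 CPM. Gins3 was at 0.63 CPM in sample 7 and 104 CPM in sample 2+3.

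The other classes lay between these. Nuclear import was led by Kpna2, an importin alpha, at 1106 ± 498 CPM, heat shock genes by Hsp90aa1 at 829.9 ± 586 CPM, vesicle transport by Rab6a at 814 ± 279 CPM, the cytoskeleton by the tubulin gene Tubb4b at 723 ± 272 CPM, and glycolysis by the X-linked gene Pgk1 at 534 ± 351 CPM. Hsp90aa1 had 2124 CPM in sample 8 and at most 830.0 CPM in the others. Polr2j of RNA polymerase II was at 506 ± 212 CPM. Of autophagy genes 25 of 30 were at 10 CPM or more, with Map1lc3b first and Rb1cc1, a subunit of the initiating kinase complex, at 500.1 ± 122 CPM.

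The spread between embryos was far above counting error. It was measured as the SD of log2 CPM over the 7 samples for the 10296 genes kept, the 60% with the most counts. The median SD was 1.18, with quartiles at 0.72 and 2.06, and the median SD that counting error alone gives was 0.13. Spread fell with level, from a median of 2.10 at 1 to 10 CPM to 1.36 at 10 to 50, 0.67 at 100 to 500 and 0.62 above 500 CPM. Among the 3932 genes of 50 CPM or more the median was 0.72. Of these, 1002 had an SD above 1, 695 ranged over more than 10-fold, 239 stayed within 2-fold, and 68 had at least 1 sample under 1 CPM. At the same level, 2 different samples differed by a median of 0.46 to 1.07 on the log2 scale over the 21 pairs, while libraries 2 and 3 differed by 0.0789. Samples 1 and 2+3 were the closest pair, and 2+3 and 8 the farthest apart.

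**Figure D3:**
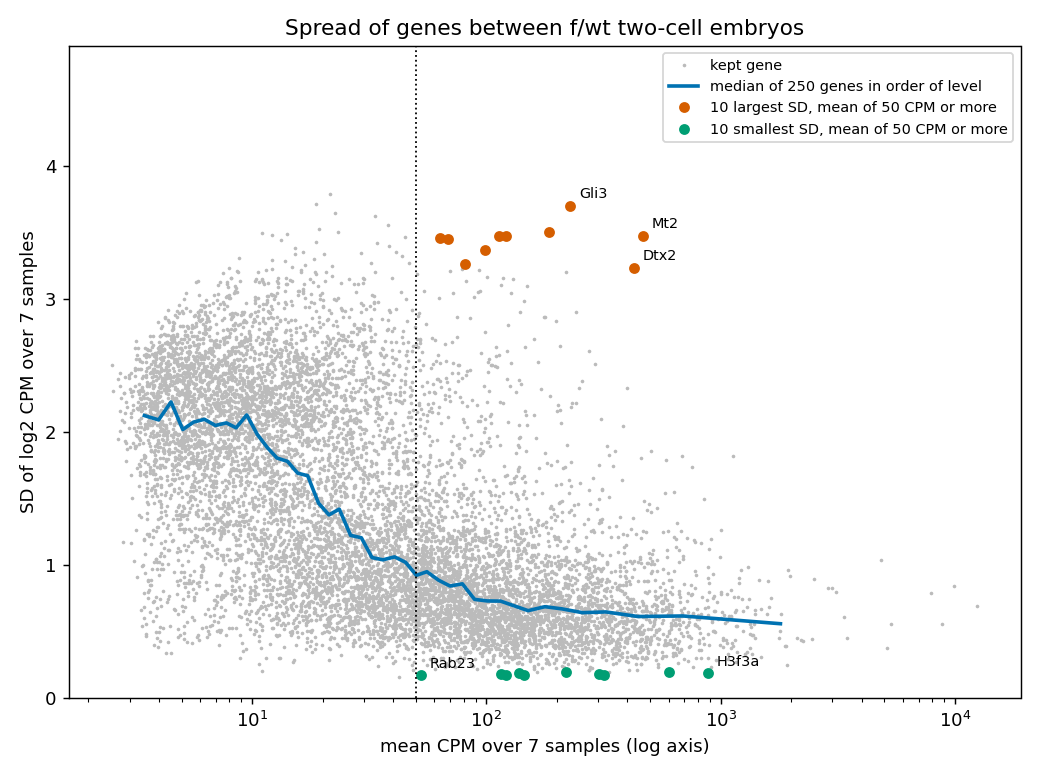
SD of log2 CPM over the 7 f/wt samples against mean CPM (log axis), 1 grey point for each kept gene, with the median of successive groups of 250 genes as a line and the 10 most and 10 least variable genes of 50 CPM or more (right of the dotted line) in colour. The 10 most variable lie at SDs of 3.24 to 3.70 and the 10 least variable at 0.17 to 0.19.

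The 10 most variable genes of at least 50 CPM followed 3 kinds of profile, a grouping made after their values were seen. The first held genes nearly absent from sample 5 and low in samples 4 and 8. They were the metallothionein genes Mt1 and Mt2, which bind zinc and copper and are induced by metals and stress, the RNA polymerase subunit gene Polr2f and the ubiquitin ligase gene Dtx2. Mt2 (chr8:94172618-94173567) was at 982 in sample 1, 1492 in 2+3, 35.6 in 4, 1.22 in 5, 280.1 in 6, 424 in 7 and 49.4 in 8 CPM. Its neighbour Mt1 (chr8:94179089-94180327) was at 285 in sample 1, 883 in 2+3, 6.33 in 4, 0.554 in 5, 41.5 in 6, 74.7 in 7 and 6.16 in 8 CPM. The metallothioneins were highest in sample 2+3, with sample 1 second in both. Polr2f was at 128 in sample 1, 212 in 2+3, 1.76 in 4, 0.111 in 5, 69.1 in 6, 28.2 in 7 and 3.67 in 8 CPM. Dtx2 differed in being highest in sample 6, at 1353 CPM, with 1.88 CPM in sample 5.

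The second kind was nearly absent from sample 2+3. Gli3 (chr13:15463723-15730025), a transcription factor of the hedgehog pathway, was at 64.3 in sample 1, 0.0773 in 2+3, 101 in 4, 634 in 5, 292 in 6, 92.6 in 7 and 407 in 8 CPM. Its raw counts in libraries 2 and 3 were 1 and 0, so both libraries were at or next to 0. Mgll, a lipase that releases fatty acids from monoacylglycerols, was at 3.65 in sample 1, 0 in 2+3, 101 in 4, 130.2 in 5, 129 in 6, 93.6 in 7 and 22 in 8 CPM. Sample 1 was the next lowest for both.

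The third kind was X-linked and nearly absent from sample 1: Gm5635, Gm5634 and Gm14499, described below, with 1700013H16Rik. The last was at 0.166 in sample 1, 47.2 in 2+3, 55.9 in 4, 139 in 5, 305 in 6, 4.41 in 7 and 241 in 8 CPM, so it was low in sample 7 too.

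These ranks depended on single samples. Leaving out samples in turn kept 49 to 90 of the 100 most variable genes among the 100, the fewest without sample 5, and 4 stayed there in every case: Mt1, Mt2, the ferritin light chain gene Ftl1 at 1.11 to 255 CPM, and the RNA polymerase II subunit gene Polr2l at 7.31 to 611 CPM. The lowest value was in sample 5 for 62 of the 100 most variable genes, and for 656 of all 3932. The highest was in sample 2+3 for 35 of the 100.

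The 10 least variable genes of at least 50 CPM differed in function. Faf1, a ubiquitin-binding factor, was at 111 in sample 1, 114 in 2+3, 124 in 4, 130.3 in 5, 135 in 6, 97.5 in 7 and 134 in 8 CPM, with no gap between samples standing out. Mdm2, the ubiquitin ligase of p53, was at 327 in sample 1, 362 in 2+3, 361 in 4, 312 in 5, 255 in 6, 296 in 7 and 306 in 8 CPM. H3f3a was at 802 in sample 1, 875 in 2+3, 749.7 in 4, 932 in 5, 992 in 6, 769.9 in 7 and 1059 in 8 CPM, and it was the highest of the 10. Others of the 10 were Dido1 at 116 to 165 CPM, the small GTPase gene Rab23 at 46.6 to 66.7 CPM, Rbm8a of the exon junction complex at 246 to 364 CPM, the ubiquitin ligase adaptor Fem1b at 118 to 162 CPM, the kinase inhibitor Pebp1 at 184 to 281 CPM, and Dppa4. Their order among the least variable genes is not firm, since SDs of 0.17 to 0.19 rest on 7 values. Of the 100 least variable genes, 27 stayed among the 100 whichever sample was left out, 9 of these 10 among them, Rab23 being the exception. The 27 also held the elongation factor gene Eef1a1 at 597 to 899.6 CPM, Cct8, the SUMO-targeted ubiquitin ligase gene Rnf4 at 733 to 1126 CPM, and Zfp706 of the 20 most abundant.

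Base composition moved with the deviations. Kept genes were divided into 5 equal groups by the GC content of the transcript, which was known for 10204 of them, and the deviation of log2 CPM from each gene's mean was taken per sample. In the group richest in GC (54.8% to 72.5%) the median deviation was 0.63 in sample 1, 0.65 in 2+3, 0.45 in 4, -1.08 in 5, 0.41 in 6, 0.68 in 7 and -0.86 in 8. In the poorest group (31% to 43.7%) it was -0.03 in sample 1, -0.12 in 2+3, 0.02 in 4, 0.40 in 5, -0.02 in 6, -0.41 in 7 and 0.88 in 8. Samples 5 and 8 were thus low in GC-rich and high in GC-poor transcripts, and the other 5 samples were high in the richest group. The median SD was 1.69 in the richest group and 1.05 in the poorest, although the richest group also had a lower typical level, 17.3 against 45.6 CPM. The group of 5 with the shortest transcripts had a median SD of 1.36 and that with the longest 1.02.

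**Figure D4:**
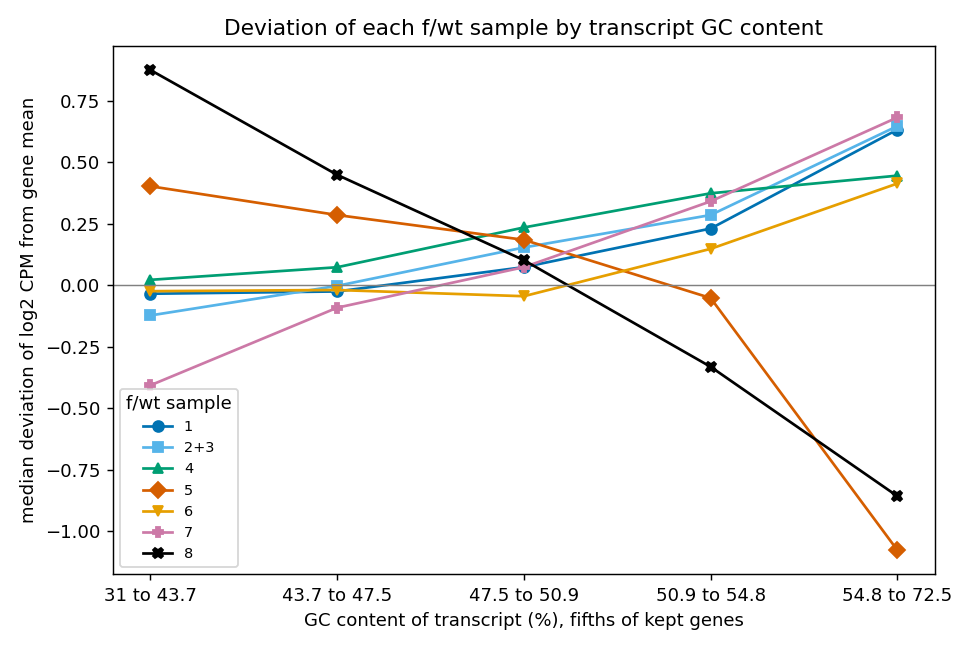
Median deviation of log2 CPM from the mean of each gene, for 5 equal groups of the kept genes by GC content of the transcript (%), 1 line for each f/wt sample. Samples 5 and 8 fall from left to right to -1.08 and -0.86 in the richest group, while the other 5 samples end between 0.41 and 0.68.

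The 100 most variable genes of 50 CPM or more had a median GC content of 53.8% and a median length of 1702 bases, against 47.6% and 3240.5 bases for all genes at that level. When the median deviation of 50 GC bins was taken out of each sample, the median SD of kept genes went from 1.18 to 1.12, and 79 of the 100 most variable genes stayed among the 100. Gli3 kept an SD of 3.70 and Mt1 of 3.35, while Polr2f went to 2.50 and Dtx2 to 2.16. Of the 100 least variable genes 32 stayed. The low small subunit ribosomal level in sample 5 was still -1.54 on the log2 scale after this step, and that of the respiratory chain -0.97. The part of GC content in single results was not tested further.

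Sample 1 was set apart by the sex chromosomes. Of 9 Y-linked genes, 407 counts were found in library 1, or 76.4 CPM of the unscaled library total, and 1 to 14 counts in each other library, at most 1.5 CPM. Library 1 held 127 counts of the deubiquitinase gene Usp9y, 112 of the translation factor gene Eif2s3y, 43 of Zfy2, 42 of Uba1y, 38 of Uty, 25 of Kdm5d, 16 of Ddx3y and 4 of Zfy1. Eif2s3y had no count elsewhere, and Usp9y 1 count in each of libraries 6 and 8. Uba1y also had 12 and 8 counts in libraries 5 and 8. Sry, the testis-determining gene, had none anywhere. Erdr1, listed on the Y chromosome but in the region shared with the X, followed another order, with 71.2 CPM in sample 1, 186 CPM in sample 2+3 and at most 4.41 CPM elsewhere. Xist, the RNA that silences an X chromosome, was at 1.16 in sample 1, 8.27 in 2+3, 3.84 in 4, 3.43 in 5, 0.689 in 6, 1.76 in 7 and 0.293 in 8 CPM, which separated no sample from the rest.

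The X-linked Fthl17 genes, relatives of the ferritin heavy chain, had the opposite pattern. In the mouse they are known to be transcribed mainly from the paternal X chromosome in early embryos. Gm5635, now named Fthl17f, was at 0 in sample 1, 81.5 in 2+3, 49.7 in 4, 86.7 in 5, 453 in 6, 106 in 7 and 72.8 in 8 CPM. Gm5634 (Fthl17b) was at 0 in sample 1, 82.4 in 2+3, 59.6 in 4, 50.5 in 5, 347 in 6, 86 in 7 and 64.7 in 8 CPM. Gm14458 (Fthl17d), Fthl17 (Fthl17e) and Gm14499 had no more than 0.166 CPM in sample 1 and between 41.1 and 333 CPM in every other sample, always highest in sample 6. These copies are near-identical and Gm14499 spans others of them, so their counts are not independent and only the family as a whole can be read. 2 more X-linked entries that share annotation, Pramel3 and AV320801, had 0 counts in library 1 and 12.5 to 79.8 CPM elsewhere. Together, 7 of the 9 genes that were under 0.5 CPM in sample 1 and at 10 CPM or more in every other sample lay on the X. Of all 10296 kept genes, 375 were X-linked. The 7 are the Fthl17 copies with Pramel3 and AV320801, so they are not 7 independent observations. Over all 375 kept X-linked genes the median deviation was -0.61 in sample 1, 0.17 in 2+3, 0.30 in 4, 0.60 in 5, -0.02 in 6, -0.02 in 7 and 0.64 in 8, and over autosomal genes 0.17 in sample 1, 0.16 in 2+3, 0.23 in 4, 0.10 in 5, 0.08 in 6, 0.10 in 7 and 0.01 in 8. No group was formed from these values.

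**Figure D5:**
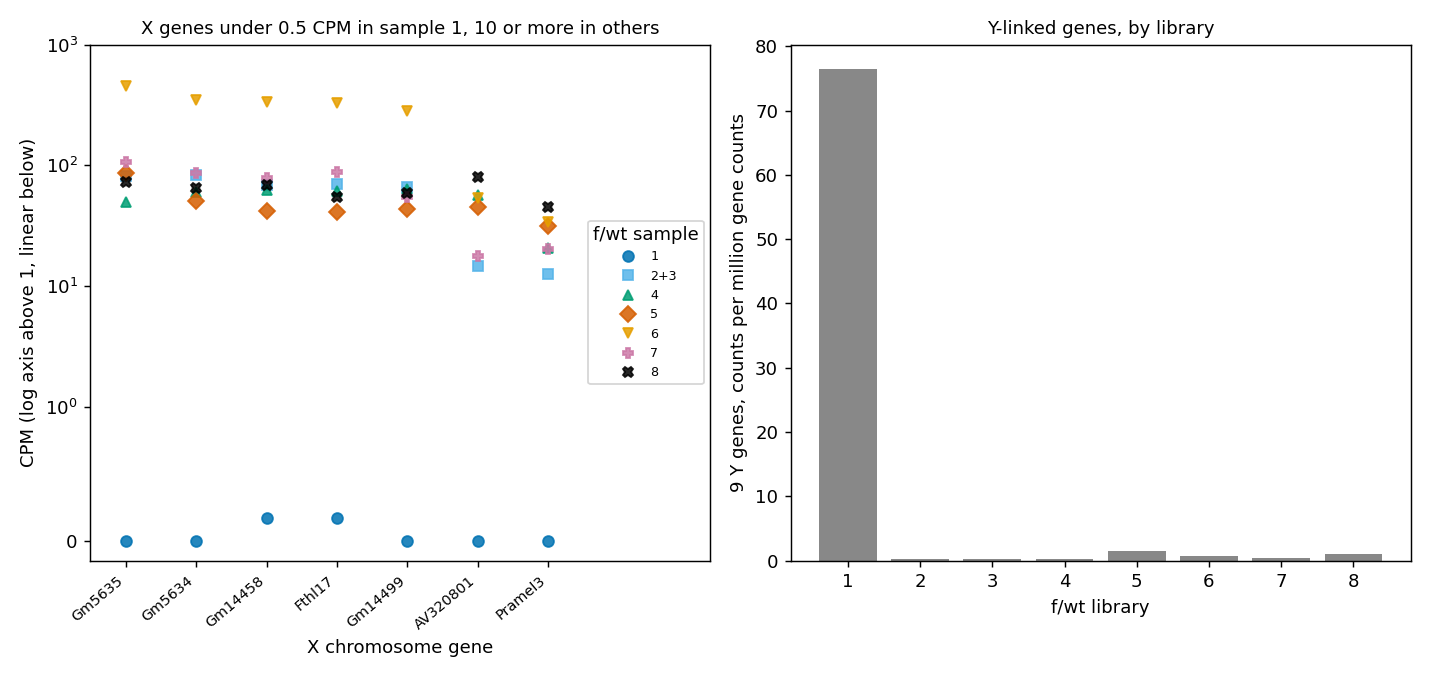
Left, level in CPM (log axis above 1, linear below) of the 7 X-linked genes that were under 0.5 CPM in sample 1 and at 10 CPM or more in every other sample, 1 point for each f/wt sample. Right, summed level of 9 Y-linked genes in CPM of the unscaled library total in each of the 8 libraries, 76.4 in library 1 and at most 1.5 in the others.

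Because the Fthl17 copies moved together, the 250 bases before the annotated start of 3 of them are shown, from RefSeq in GRCm38.p6. Capitals mark TATAAA and ATTGG on either strand, the latter being the reverse of the CCAAT box.
Fthl17b at chrX:8962976-8963225, minus strand: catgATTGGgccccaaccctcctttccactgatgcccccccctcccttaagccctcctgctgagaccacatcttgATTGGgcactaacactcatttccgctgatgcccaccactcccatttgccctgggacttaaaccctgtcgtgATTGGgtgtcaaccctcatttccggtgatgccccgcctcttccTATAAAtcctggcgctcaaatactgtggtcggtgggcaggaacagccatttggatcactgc
Fthl17e at chrX:9033236-9033485, plus strand: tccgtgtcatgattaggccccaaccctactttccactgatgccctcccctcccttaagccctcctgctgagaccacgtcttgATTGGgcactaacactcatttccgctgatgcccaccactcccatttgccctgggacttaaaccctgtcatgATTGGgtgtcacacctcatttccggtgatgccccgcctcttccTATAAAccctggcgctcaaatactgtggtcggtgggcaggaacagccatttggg
Fthl17f at chrX:9062840-9063089, plus strand: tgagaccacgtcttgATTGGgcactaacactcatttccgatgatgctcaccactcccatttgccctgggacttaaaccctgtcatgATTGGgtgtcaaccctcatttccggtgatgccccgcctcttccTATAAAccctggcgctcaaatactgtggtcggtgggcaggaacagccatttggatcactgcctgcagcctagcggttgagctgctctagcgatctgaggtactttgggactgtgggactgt

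Aligned end to end with free ends, these windows were 96.3%, 97.4% and 97.3% identical, for Fthl17b with Fthl17e, Fthl17b with Fthl17f and Fthl17e with Fthl17f. Each held 1 TATAAA, which began 61, 54 and 121 bases before the annotated start, and 3, 2 and 2 copies of ATTGG. Of 32851 RefSeq promoter windows of the same length, 12.4% held TATAAA and 33.8% ATTGG on either strand, and 4.4% held both. These are matches of letters, not sites of binding.

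Genes could also be missing from 1 embryo without a shared chromosome. In all, 146 genes were under 0.5 CPM in 1 sample and at 10 CPM or more in the 6 others, beside 5575 genes at 10 CPM or more in at least 6 samples. They were unevenly divided, with 61 in sample 7, 44 in 6, 25 in 5, 9 in 1, 4 in 8, 3 in 2+3 and 0 in 4. Sample 4 also had the most genes at equal depth and samples 6 and 7 the fewest. The genes missing from sample 5 had a median GC content of 55.5%, those missing from sample 7 of 45.4%. The reverse, 10 CPM or more in 1 sample and under 0.5 CPM in all others, held for 83 genes, 29 of them in sample 7, 24 in 6 and 16 in 8. The highest in sample 8 was the lens filament gene Bfsp1 at 131 CPM, with no more than 0.0773 CPM in the others. The genes of this paragraph were named after their values were seen.

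In read processing, libraries 1 to 3 stand apart from libraries 4 to 8, by the numbers of reads and the share lost to filters in the study's own account, so samples 1 and 2+3 were compared with samples 4 to 8. By edgeR's quasi-likelihood test, no gene passed an adjusted p of 0.05, 0.0% of 10296 genes tested, the smallest adjusted p being 0.716. At an unadjusted p under 0.05 there were 678 genes, 6.59% of those tested. limma-voom also gave 0 genes, with 1099 at an unadjusted p under 0.05. DESeq2's Wald test gave 92 genes, 0.912% of 10092, with 16 higher and 76 lower in libraries 1 to 3. Examples of the latter, named after the fact, were Pgk1 at a log2 difference of -2.77 and Zfp352 at -2.24, and of the former Mt1 at 4.53. With 2 samples against 5, the library sets and the embryos in them cannot be told apart.

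The repeat reads of these embryos were dominated by LTR elements. Reads had been assigned to 16 classes of repeats, and they numbered 505631 to 1457840 per sample, or 11.2 ± 2.84 (SD, n = 7) per 100 gene counts, most in sample 5 at 15.6 and sample 4 at 14.3. LTR elements, the class that holds the MERVL and IAP retroviruses, made up 71.5% in sample 1, 59.7% in 2+3, 71.5% in 4, 72.9% in 5, 68.5% in 6, 65.5% in 7 and 68.6% in 8 of repeat reads. SINEs, short elements copied with the help of LINE enzymes, made up 17.7% ± 3.9 (SD, n = 7) and LINEs 8.88% ± 1.26. DNA transposons, whose copies no longer move in the mouse, followed with 1.89% ± 0.245 and satellites with 0.919% ± 0.185. LTR stood above SINE, SINE above LINE, LINE above DNA, DNA above satellite and satellite above simple repeats in 7 of 7 samples, each with an exact two-sided sign-flip permutation p of 0.0156, the smallest that 7 samples allow, and an adjusted p of 0.026 over 15 pairs of neighbours. In all, 10 of these pairs passed 0.05. The pairs were set by the order of mean share in these same samples, so the p-values are no independent support for that order. Leaving out any sample but 8 left no pair below an adjusted p of 0.05, as 6 samples cannot go below 0.0312. Simple repeats, the class Other, Unknown, tRNA and low-complexity repeats could not be ordered, with adjusted p of 0.288 for tRNA against low complexity and 0.938 for simple repeats against Other by the same exact test.

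LTR was low and SINE high in sample 2+3, where SINE reached 25.3%, and the LTR share was next lowest in sample 7, where SINE was 20.2%. LINE ranged from 6.53% in sample 1 to 10.1% in sample 6. Among the classes above 0.1% of repeat reads on average, tRNA and rRNA varied most. The tRNA share ranged 20.2-fold and was 0.617% in sample 1, 1.14% in 2+3, 0.111% in 4, 0.102% in 5, 0.0567% in 6, 0.101% in 7 and 0.226% in 8. Samples 1 and 2+3 lay above all others in tRNA. The rRNA share was 0.0555% to 0.096% in samples 4 to 7, and 0.205%, 0.349% and 0.341% in samples 1, 2+3 and 8. Per the paper, reads matching ribosomal RNA were removed before repeats were counted, so this share does not measure rRNA content. Simple repeats were 1.03% in sample 8 and 0.33% to 0.511% in the others. Low-complexity repeats were the steadiest of the small classes, at 0.277% to 0.359%.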

How the data were processed

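Single two-cell embryos were lysed and reverse transcribed, and the whole complementary DNA was amplified with an oligo-dT method that covers mainly the 3′ ends, without molecular identifiers, so intervals from counts cover counting error only. Per the labels, the authors aligned reads to mm10 with TopHat2 2.0.6 and counted them with HTSeq 0.6.1, and the deposited gene files hold raw counts for 24063 RefSeq genes. Strand setting and annotation release are not given in the sources used here. For repeats the deposited counts are reads per class of RepeatMasker, aligned with Bowtie 1.0.0 after the authors removed reads that matched ribosomal RNA. In each gene file 1 line without a gene was left out. Depth was 3212510 to 9337451 counts per library.

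Libraries 2 and 3 were summed. Genes were kept as in the study, those with a count and then the 60% with the most. Counts were scaled by TMM with edgeR 4.0.16 (factors 0.795 to 1.13), and log2 CPM was taken with a prior count of 2. The library sets were compared with edgeR's quasi-likelihood test under Benjamini-Hochberg adjustment, with DESeq2 1.42.0 and limma 3.58.1 as alternatives. The script was tested on simulated data. Transcript length and GC content came from GENCODE M21 (GRCm38), matched by symbol for 23544 genes, 856 of them by an older symbol. Neighbouring repeat classes were compared within samples by an exact sign-flip test (Python 3.11.15), with 0.5 added to each count. Named genes were the 20 highest by CPM, the 10 highest per kb, the 10 most and 10 least variable of at least 50 CPM, from each list the 2 highest and the most variable of at least 10 CPM, and all quantitative PCR, zona pellucida and sex-linked genes. Of the genes this rule names, 1 is not reported here. Members and lists were chosen with earlier results of these data known. The sources do not say whether the embryos shared litters, so p-values measure only the spread between these samples. Alternatives were other scalings, prior counts and filters, samples left out, samples 4 to 8 alone, and removal of GC content, the last chosen after seeing the data, as were the alternatives for the most abundant genes and for genes missing from 1 sample.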

Additional observations from a re-analysis of the deposited data

Results flagged for a closer look

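In 101 series of 7 values (52 genes, 32 lists and 17 repeat measures), the gap between the most extreme sample and its neighbour was divided by the whole range, and 9 passed Dixon's critical value for 7 values. Chance gives about 1 in 20 where series are not chosen by their values. The genes here included the most and least variable ones, chosen by their spread over these same 7 samples. Gli3, Gm5635, Gm5634, Gm14499 and Rab23 were among them. The number that passed therefore cannot be set against that rate. On the log2 CPM scale, sample 1 was far below the rest for Gm5635 (0.709 of the range), Gm5634 (0.736) and Gm14499 (0.737), which are copies of 1 family and count as 1 observation. Sample 2+3 was far below the rest for Gli3 (0.7) and for Klf4 (0.597), and sample 6 for Kdm1a (0.589), where library 6 held 8 counts. For Rab23, one of the least variable genes, sample 4 was above the rest (0.57) at 66.7 CPM, with the other 6 between 46.6 and 54.4 CPM.

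Among repeats, sample 8 was above the others in the share of simple repeats (0.74), and sample 2+3 in scRNA (0.599) at 0.0797% against 0.0443% to 0.0585%. Libraries 2 and 3 gave 0.0865% and 0.0774%.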

How the results depend on the processing

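The number of genes at 1 CPM or more, the 20 most abundant genes, the 5 highest lists, the median SD and the number of genes with an SD above 1 stayed within 1.5 times, or within 1 jackknife SD for the median SD, under every alternative run. With samples left out in turn, the genes at 1 CPM or more numbered 12465 to 12753, the median SD was 1.06 to 1.2, and 4 to 5 of the 5 highest lists and 18 to 20 of the 20 most abundant genes were shared. The lists of extremes were less firm. Of the 10 most variable genes, 1 was among the 10 of samples 4 to 8 alone, and 6 to 10 with samples left out in turn. Of the 10 least variable genes, 3 were shared when scaled by library totals, 1 with samples 4 to 8 alone, 1 with GC content removed, and 1 to 5 with samples left out in turn. The cause was not tested. For single genes, 514 of 540 values stayed within the limit set, the SD between samples for a mean CPM and the jackknife SD for an SD. Both limits were taken from these same samples, so this count says little about leaving samples out.

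For the library sets, DESeq2's Wald test called 92 genes against 0 in edgeR, limma-voom and all other alternatives, those with samples left out in turn included, where a set of 1 sample is assumed to vary like the other. The cause was not tested. The count of ordered repeat neighbours was 0 in samples 4 to 8, where 5 samples cannot give a p below 0.0625, and 0 to 10 with samples left out in turn. It was 8 with library 2 alone and 8 as a share of gene and repeat reads together. The median SD of the log2 repeat share was 0.325, 0.286 to 0.355 with samples left out in turn, and 0.439 relative to gene counts, which adds the spread of the repeat total. Genes missing from 1 sample numbered 73 with limits of 1 and 20 CPM and 164 with library totals, against 146. No paired analysis was possible because only 1 group was analysed. A gene at 0 in a library of 3212510 counts may be present below the limit of detection, and 1 library per embryo sets no technical error.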

Other observations

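The first principal component of the kept genes carried 31.6% of the variance. Its loading was 0.63 in sample 7, -0.43 in 8 and -0.57 in 5, and between -0.11 and 0.20 in the other 4, so that the samples lowest in GC-rich transcripts stood at 1 end.

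Dcdc2c and Gm7102, which lie on different chromosomes, moved together. Gm7102 was at 6481 in sample 1, 2728 in 2+3, 9781 in 4, 15069.9 in 5, 7443 in 6, 4735 in 7 and 8942 in 8 CPM, and put the 7 samples in the same order as Dcdc2c did, sample 5 being highest and sample 2+3 lowest. Whether they share reads was not tested.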
